A study of Macaca mulatta with 13 samples.

Results

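The genes for the CD3 chains CD3D, CD3E, CD3G and CD247, for the T cell receptor alpha constant region (TRAC), and for the T cell surface proteins CD2 and CD6 were followed in single colon leukocytes of the rhesus macaque, Macaca mulatta. They are 7 of the 34628 genes in the deposited count matrix. The genes were picked by name, with earlier results of these data known, and each matched 1 gene ID by its symbol in the files. The IDs are ENSMMUG00000049268 for CD3D, ENSMMUG00000017593 for CD3E, ENSMMUG00000017600 for CD3G, ENSMMUG00000008158 for CD247, ENSMMUG00000055371 for TRAC, ENSMMUG00000052649 for CD2 and ENSMMUG00000044417 for CD6.

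An alpha-beta T cell reads peptides on MHC molecules with a receptor made of an alpha and a beta chain, which have almost no inner parts of their own. The signal is carried by the CD3 chains, which join the receptor in pairs (delta with epsilon, gamma with epsilon, and a pair of zeta chains encoded by CD247) and are phosphorylated by the kinase LCK. CD2 strengthens the contact with other cells by binding CD58 or CD48, and CD6, which binds ALCAM and CDCP1, recruits adaptor proteins and can restrain the signal. In the gut wall most T cells are resident memory cells, many of them with the integrin chain CD103.

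The animals were recipients of blood stem cell transplants with graft-versus-host disease (GVHD), an attack of donor T cells on recipient tissue, and untransplanted controls. The labels name 13 libraries: 4 of host cells, 2 of donor cells and 3 of host and donor cells combined, all from transplanted animals, and 4 of healthy controls. Live cells with the leukocyte protein CD45 and without the CD45 label marked IVas were sorted, and host and donor cells of some animals were parted by the MHC class I molecule MAMU-A001. No source used here gives ages, drug treatments or how many animals a library holds.

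Each library is known in the files only by the number from 1 to 13 at the end of its barcodes, and no file ties a number to a label. The libraries therefore stayed unassigned, no host, donor, GVHD or healthy group was compared, and no p-value is given. Differences are described inside each library, and a gene was called one way only where its difference had the same sign in every library compared. Libraries 4 and 6 shared 5323 barcodes, 98% of those in the smaller one, so library 4 was dropped, which left 20567 of the cells kept by the authors in 12 libraries. The 13 libraries held 3128386 to 19655788 unique molecular identifiers (UMIs, each marking 1 captured RNA molecule), and a kept cell had a median of 3412 UMIs.

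A T cell was a kept cell with at least 3 CD3D UMIs and none of the B cell genes MS4A1 and CD79A, which held for 9460 cells (46.0%). CD3D chose these cells, so its level in them is a description of the choice. Of the UMIs of each of the 7 genes in kept cells, between 62.2% (CD247) and 80.3% (TRAC) lay in T cells. CD3E was found in 78.5% of T cells, CD3G in 70.4%, TRAC in 85.4%, CD2 in 56.6%, CD6 in 22.9% and CD247 in 0.962%. Cells just inside the threshold, with 3 CD3D UMIs (1271 cells), had 412 CPM (UMIs of the gene per 1000000 UMIs of the same cells) of CD3E and 673 CPM of TRAC. Cells just outside it, with 2 CD3D UMIs (1097 cells), had 337 CPM of CD3E and 566 CPM of TRAC, and cells with none (1556 cells) had 25.1 and 61.4 CPM. The other receptor genes thus lay at a similar level on both sides of the threshold and far lower only in cells without CD3D.

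Markers of other cells were uneven in the T cells of the 12 libraries. The plasma cell gene MZB1 stood highest in library 10, with 1670 CPM, where the other libraries had at most 542 CPM. JCHAIN, another plasma cell gene, was highest in library 7, with 5 T cells, and next in library 10. In library 10, 36.7% of T cells, thinned to 1500 UMIs each, held no UMI of CD3E, CD3G, TRAC, CD2 or CD6, where 7.11% of all T cells did so. Among the 10 libraries with at least 50 T cells, EPCAM was at most 16.0 CPM and COL1A1 at most 2.78 CPM, while the myeloid gene S100A8 reached 1882 CPM in library 1. In all, 309 T cells also passed a gate for plasma, myeloid or epithelial cells. No T cell can pass the B gate, since the T gate takes no cell with MS4A1 or CD79A. The levels of the 6 better measured genes in library 10 are given below with and without cells of another gate. The part of such cells in the remaining differences between libraries was not tested.

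CD3E, whose chain is part of both CD3 pairs with delta and gamma, differed by several fold between libraries. It stood at 628, 644, 666 and 946 CPM in libraries 1, 2, 3 and 5, against a lowest of 161, a median of 346 and a highest of 490 CPM in libraries 8 to 13. All 4 libraries of the lower-numbered set lay above all 6 of the higher-numbered set. The lowest value was that of library 10, which stood at 412 CPM without cells of another gate, and the higher-numbered set then ran from 365 to 529 CPM. CD3D followed the same split among cells that it had itself chosen, with 2188, 2286, 2711 and 3699 CPM against 1308 to 1926 CPM, but not without cells of another gate, where library 10 stood at 2479 CPM.

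CD3G did not follow CD3E. Its level was 252, 251, 393 and 668 CPM in libraries 1, 2, 3 and 5, and ran from 198 CPM in library 10 to 586 CPM in library 9 (median 417 CPM) in libraries 8 to 13, so that the sets overlapped. Without cells of another gate library 10 stood at 498 CPM of CD3G, and the sets still overlapped. CD247, the gene of the zeta chain that carries most of the phosphorylation sites, was close to unseen, with 92 UMIs in all T cells. It had 2 UMIs in library 2 and none in libraries 1, 3 and 5, which allows up to 0.522, 3.11 and 1.24 CPM at 3 UMIs. In libraries 8 to 13 it lay between 2.81 and 6.89 CPM. The measured values of the sets did not overlap, but the limit of library 3 lies above the 2.81 CPM of library 13. After thinning to 1500 UMIs per cell CD247 had fewer than the 50 UMIs set for a measured gene and was no longer called, so whether the sets overlap in it is not settled at this depth.

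TRAC, the constant part of the alpha chain, varied most among the 6 genes found in every library with at least 50 T cells, with the highest library 13.7 times the lowest. The lowest was library 10, and the highest was 7.5 times the lowest with that library left out and 6.21 times with cells of another gate left out, again the widest of the 6 genes. TRAC stood at 1308, 1418, 2018 and 2688 CPM in libraries 1, 2, 3 and 5, against 197 to 829.4 CPM (median 529 CPM) in libraries 8 to 13. Library 10 stood at 493.1 CPM without cells of another gate. The sets did not overlap with or without those cells, and the ratio between them was wider than for CD3D, CD3E or CD3G.

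CD2 stood at 192, 362, 459 and 705 CPM in libraries 1, 2, 3 and 5, against 125 to 445 CPM (median 231 CPM) in libraries 8 to 13. CD6 stood at 84.0, 95.7, 74.6 and 40.6 CPM in libraries 1, 2, 3 and 5, against 19.7 to 104 CPM (median 63.7 CPM). Both genes overlapped between the sets. Without cells of another gate library 10 held 330 CPM of CD2 and 54.3 CPM of CD6, and both genes still overlapped. Library 5, which was highest of the 10 libraries for CD3D, CD3E, CD3G, TRAC and CD2, was lower in CD6 than every other library except library 10, and lower than library 10 too without cells of another gate (43.5 CPM). Libraries 6 and 7, with 36 and 5 T cells, were too thin to be placed.

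**Figure D1:**
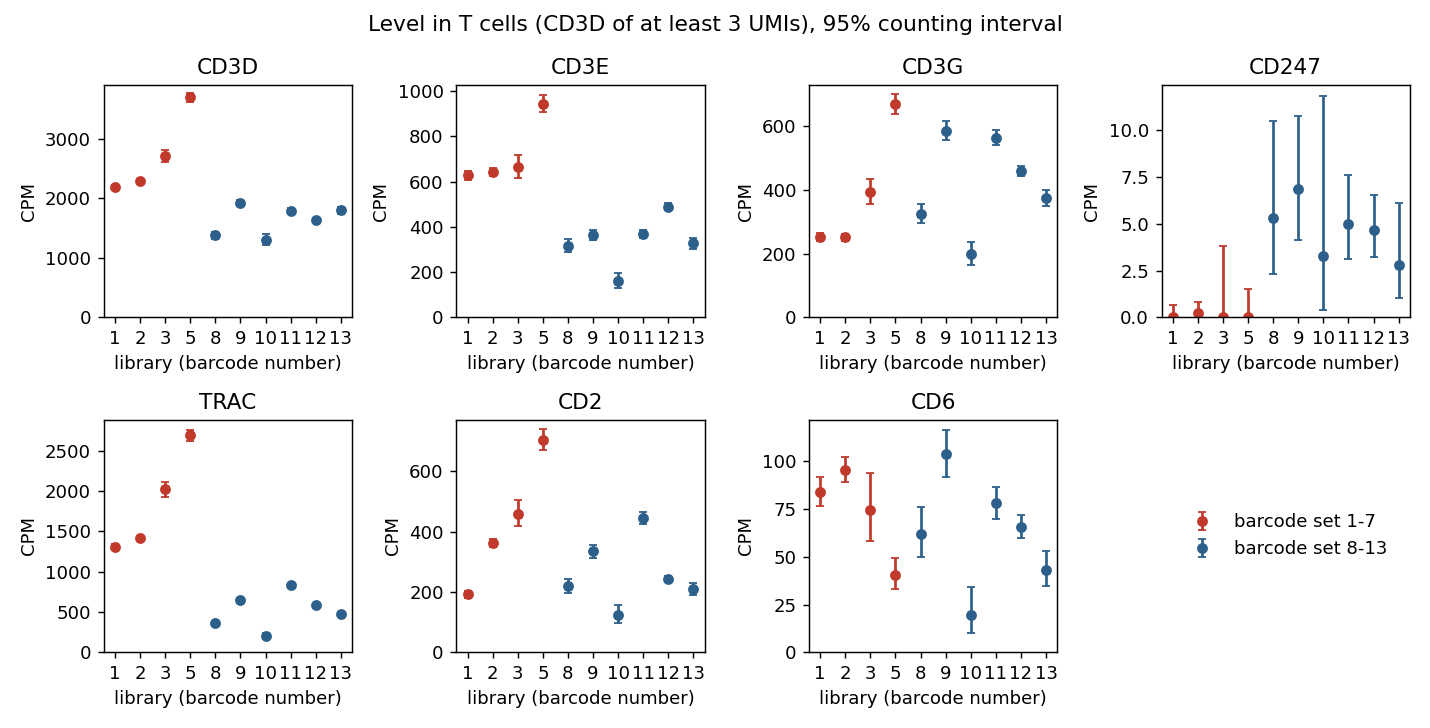
Level of each of the 7 genes in T cells, in CPM of the same cells, for the 10 libraries with at least 50 T cells, numbered by barcode; bars are exact 95% Poisson intervals, which cover counting error only. CD3D, CD3E and TRAC of the red libraries (set 1-7) all lie above the blue ones (set 8-13), the measured CD247 lies below them from at most 2 UMIs a library, and CD3G, CD2 and CD6 overlap.

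The numbers 1 to 7 and 8 to 13 form separate barcode sets. Pairs of libraries inside set 1-7 shared 0.470% to 1.02% of the barcodes of the smaller library (libraries 4 and 6 aside), pairs inside set 8-13 shared 0.0265% to 0.247%, and pairs across the sets shared at most 0.0783%. The labels name a version 2 and a version 3 droplet kit (10x Genomics), and no source used here says which library came from which. The label groups could also differ between the sets, so kit, animal and condition cannot be told apart in what follows.

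Set 1-7 lay above set 8-13 without overlap for TRAC (log2 ratio of the medians 1.67), CD3E (0.90) and CD3D (0.54). The ratios are of CPM plus 10. The measured CD247 lay lower without overlap (-0.57), within the limits of depth given above, while CD2 (0.80), CD6 (0.27) and CD3G (-0.39) overlapped. Of 10162 genes with at least 50 UMIs in T cells, 6.41% lay higher and 12.2% lower without overlap, and the median gene had a log2 ratio of -0.11. The 3 higher of 7 members are a larger share than that of all measured genes. They include CD3D, which chose the cells and overlapped once cells of another gate were left out. Since the 7 genes were chosen with earlier results known, and 651 measured genes were parted in the same way, nothing particular to the receptor genes is read from this share.

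The split was also looked at inside each kind of T cell. A CD8A kind (at least 1 CD8A UMI and no CD4) and a CD4 kind (at least 1 CD4 UMI and no CD8A) were formed, and only libraries with at least 50 cells of the kind entered. In the CD8A kind, CD3D, CD3E and TRAC again lay higher in set 1-7 without overlap, where 8.84% of 8062 genes were higher and 17.8% lower. For CD3D this holds only without library 10, whose 42 cells of the CD8A kind outside the other gates had 2666 CPM of CD3D, so that CD3D overlaps where that library is let in. Its 427 CPM of CD3E and 531 CPM of TRAC lay below set 1-7. In the CD4 kind CD3E and TRAC did, where 6% of 6948 genes were higher and 18.7% lower, and CD3D overlapped. TRAC in the CD4 kind had a median of 1894 CPM in set 1-7 and 654 CPM in set 8-13. Among all T cells without those in another gate, CD3D overlapped as well, since library 10 then stood at 2479 CPM in place of 1308 CPM, while CD3E, TRAC and the measured CD247 still did not overlap. With cells holding MS4A1 or CD79A kept in, TRAC and CD247 alone did not overlap.

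The balance between CD3E and CD3G, whose chains pair with each other, can be read without any scaling by depth, as the share of CD3E among the UMIs of both. How well each RNA is captured also sets this share, so it was compared between libraries and not taken as a ratio of molecules in the cell. It was 71.3%, 71.9%, 62.9% and 58.6% in T cells of libraries 1, 2, 3 and 5, against 38.3% to 51.6% (median 45.7%) in libraries 8 to 13. The sets did not overlap for this share. The same held, over libraries with at least 20 cells of the kind, in the CD8A kind (61.6% to 71.9% against 39.5% to 51.5%), in the CD4 kind (59.3% to 71.7% against 39.4% to 45.6%) and in the other T cells (56.3% to 72.8% against 37.5% to 53.6%), none of which contain cells of another gate. The share of CD3E among CD3E plus CD3D overlapped, at 19.7% to 22.3% in set 1-7 against 10.9% to 23.0% in set 8-13.

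**Figure D2:**
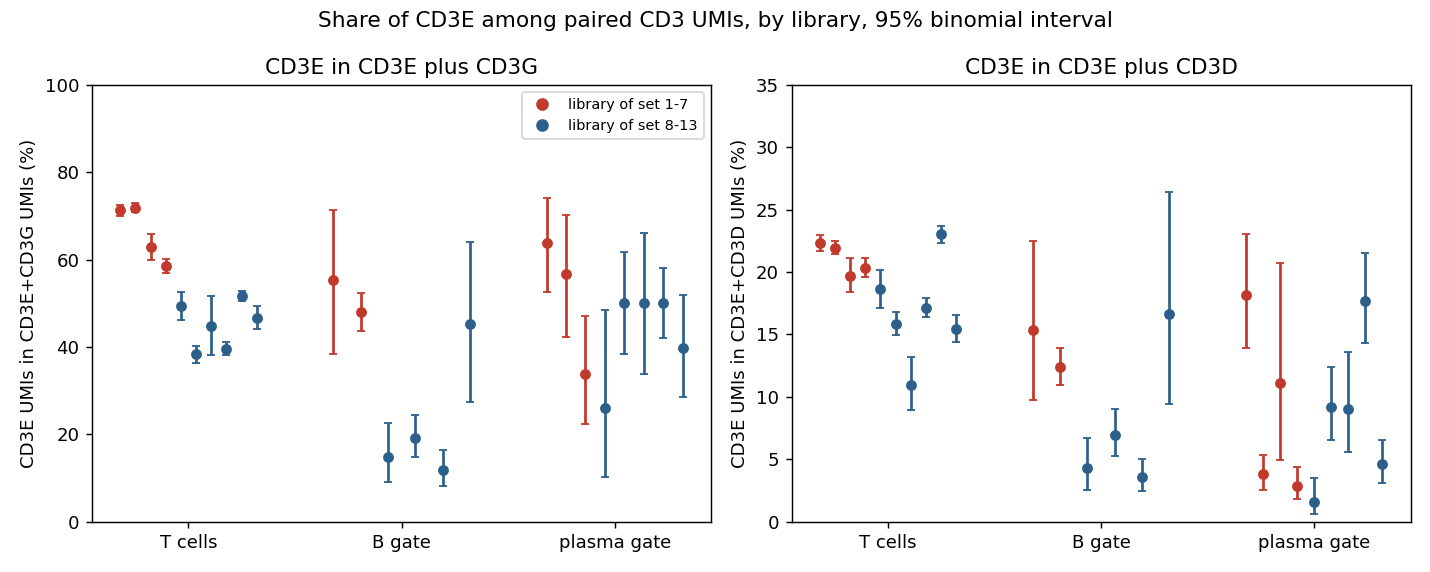
Share of CD3E among the UMIs of CD3E plus CD3G (left) and of CD3E plus CD3D (right), in percent, per library, in T cells, in cells of the B gate and in cells of the plasma gate; bars are exact 95% binomial intervals for counting error only. In T cells the red libraries (set 1-7, 58.6% to 71.9%) lie above the blue ones (set 8-13, 38.3% to 51.6%) on the left, and the B and plasma gates of several libraries lie below their own T cells on the right.

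CD2 was the member that parted the CD8A kind from the CD4 kind. In 8 libraries both kinds had 20 cells or more (2973 and 1617 cells in all), and CD2 had 150 to 534 CPM in the CD8A kind (median 220 CPM) and 183 to 972 CPM in the CD4 kind (median 476 CPM). The log2 ratio was negative in 8 of 8 libraries, with a median of -0.98. It ran from -1.60 in library 9, with 154 CPM in the CD8A kind against 488 CPM in the CD4 kind, to -0.002 in library 1, with 183 CPM in both. Library 1 thus showed no difference to speak of, and in the other 7 libraries the ratio was -0.50 or lower. After thinning to 1500 UMIs, 30.1% of the CD8A kind and 45.8% of the CD4 kind held a CD2 UMI, all libraries pooled and cells of another gate left out. Of 9054 measured genes, 3.37% were lower and 1.8% higher in all 8 libraries.

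The lower CD2 of the CD8A kind was also seen among cells without granzyme B and among cells without CCR7. Among cells with no GZMB UMI the median log2 ratio was -1.20 and lower in 7 of 7 libraries. Among cells with at least 2 GZMB UMIs it was -0.83 and lower in 3 of 4, and among cells with no CCR7 UMI -0.97 and lower in 7 of 8. In set 1-7 alone the median was -0.50 over 3 libraries and in set 8-13 alone -1.20 over 5, which were lower in each. The sign in every library was lost by 1 library with T cells of at least 1 or at least 5 CD3D UMIs, with MS4A1 and CD79A cells kept in and with CD8B counted for the CD8 kind, under which the medians were between -0.85 and -1.03.

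The other members did not part these kinds. CD3E had a median of 467 CPM in the CD8A kind and 435 CPM in the CD4 kind, and was higher in 4 of 8 libraries. CD3G (481 and 499 CPM, higher in 4 of 8), TRAC (736 and 800 CPM, higher in 3 of 8) and CD6 (71.8 and 88.7 CPM, higher in 3 of 8) changed sign between libraries. CD247 was too low to be measured here, with 32 UMIs in the CD8A kind and 17 in the CD4 kind. The log2 ratio of TRAC ran from 0.33 in library 1 to -0.67 in library 8, and that of CD3E from 0.51 in library 12 to -0.34 in library 8.

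**Figure D3:**
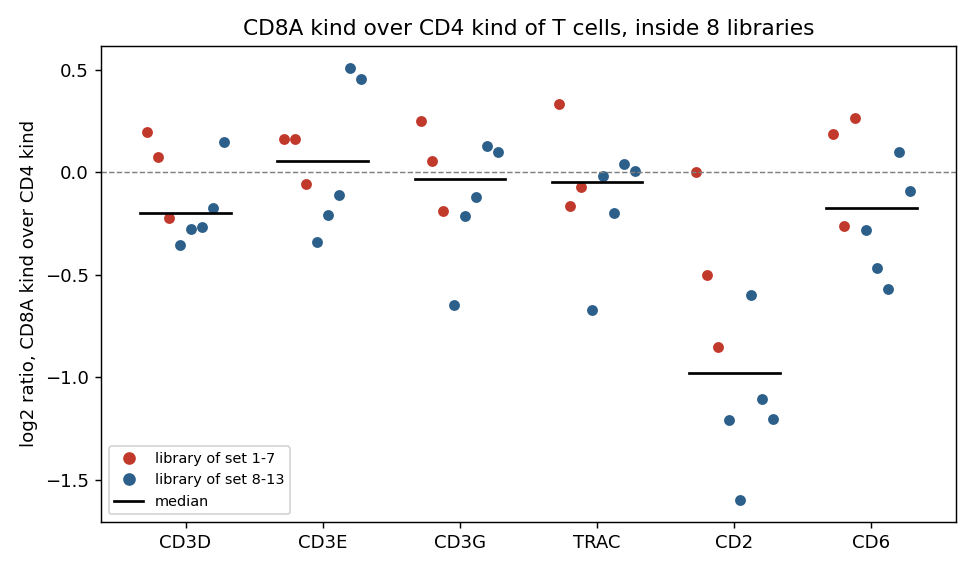
Log2 ratio of the CD8A kind over the CD4 kind of T cells (CPM plus 10) for 6 genes, each point 1 of 8 libraries and the line their median; CD247 is left out for low counts. CD2 lies at or below 0 in all 8 libraries (median -0.98), and every other gene has libraries on both sides of 0.

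Among 27 genes of T cell receptor signalling, listed by their known roles, 26 were measured between these kinds. In the CD8A kind 4 of them were higher in all 8 libraries, namely THEMIS (median log2 ratio 0.31), which tunes receptor signals in thymocytes, the phosphatase PTPN22 (0.75), the adaptor SLA2 (0.50) and the ubiquitin ligase CBLB (0.51). LAT, the adaptor phosphorylated by ZAP70, was 1 of 3 that were lower (-0.37), with the costimulatory receptor CD28 (-1.22) and the adaptor SLA (-1.31). Of 9054 measured genes, 1.8% were higher and 3.37% lower in all 8 libraries. The ratio nearest 0 was 0.028 for THEMIS, 0.048 for SLA2, -0.079 for LAT and -0.103 for SLA. The whole list had a median of 0.02, beside -0.02 over all measured genes, so it did not lean one way. This list and the ligands were compared only with cells of another gate kept in. S100A8 had medians of 0 CPM but reached 4135 CPM in the CD4 kind and 927.7 CPM in the CD8A kind, and its part was not tested. CD28 had a median of 55.9 CPM in the CD8A kind and 163 CPM in the CD4 kind, lower like CD2, and both are receptors that add to the T cell receptor signal. ALCAM, the ligand of CD6, was lower in the CD8A kind (5.08 and 18.2 CPM, log2 ratio -0.67), and neither CD58 nor CD48 was one way.

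T cells with CCR7, the receptor that guides naive and recirculating cells into lymph nodes, had slightly more CD2 and CD6. CD6 had a median of 92.3 CPM with CCR7 and 64.0 CPM without, with a log2 ratio above 0 in 9 of 9 libraries (median 0.35, from 0.01 to 0.68). CD2 had a median of 360 CPM with CCR7 and 320 CPM without, also in 9 of 9 (median 0.17, from 0.03 to 0.90). Of 10133 measured genes, 1.64% were higher and 1.03% lower in all 9 libraries. The smallest of these ratios were close to 0, and the sign was lost for both genes in 1 or 2 libraries after thinning and after cells of another gate were left out. The plasma gene MZB1 stood at a median of 24.6 CPM with CCR7 and 264 CPM without, and its part in the result was not tested beyond leaving those cells out. CD8A was higher with CCR7 in 1 of 9 libraries (medians 121 and 128.5 CPM), and CD4 in 5 of 9. The comparison was not made inside the CD8A and CD4 kinds, so the part of these kinds in it was not tested. CD3E was lower with CCR7 in 7 of 9 libraries (median -0.07), and TRAC higher in 5 of 9. Of the 27 signalling genes, CD28 was higher (0.52) and PTPN22 lower (-0.51) with CCR7 in all 9 libraries, which was not tested without cells of another gate.

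T cells with ITGAE, the gene of CD103, which binds epithelial E-cadherin, did not differ from those without it in any member in all 10 libraries. The median log2 ratios of the 7 genes lay between -0.17 for CD6 (lower in 8 of 10 libraries) and 0.004 for CD3E (higher in 5 of 10). Here 0.335% of 10162 measured genes were higher and 0.197% lower in all 10 libraries, and none of the 27 signalling genes was. TRAC had a median of 725 CPM with ITGAE and 743 CPM without. Cells with ITGAE had the higher median UMI count in 9 of 10 libraries.

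T cells with granzyme B, a protease of killer cells, had more CD3E and TRAC than those without, though not in every library once cells of another gate were left out. With at least 2 GZMB UMIs, CD3E had a median of 484 CPM, against 411 CPM with none, and was higher in 10 of 10 libraries (median log2 ratio 0.36, from 0.04 to 1.35). TRAC had medians of 853 and 710 CPM and was higher in 10 of 10 (0.20, from 0.02 to 1.30). CD3D and CD3G were higher in 9 of 10 and CD2 in 8 of 10, while CD6 was higher in 5 of 10. Of 10012 measured genes, 3.47% were higher and 0.519% lower in all 10, with a median of 0.05 over all of them.

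MZB1 stood lower with GZMB in 10 of 10 libraries (median 89.1 CPM, against 318 CPM without), and JCHAIN, the joining chain of secreted antibodies, did as well. Without the cells of another gate, CD3E was higher in 8 of 10 libraries (median 0.14) and TRAC in 7 of 10 (0.14). With a T cell gate built on other T cell genes and no member, both were higher in 7 of 8 libraries (0.19 and 0.13). Library 10 had the widest ratio for both, with 295 CPM of CD3E with GZMB and 110 CPM without. LCK was higher with GZMB in all 10 libraries (0.61), as were FYN (0.50), a kinase of the same family, the adaptors LCP2 (0.38) and SLA2 (0.57), and CBLB (0.47). No signalling gene of the 27 was lower in all 10. The signalling genes were compared only with cells of another gate kept in, so whether they stay higher without those cells was not tested. CD8A was also higher with GZMB in 10 of 10 libraries (medians 206.9 and 96.26 CPM). SLA2 and CBLB were among the genes higher in the CD8A kind. The GZMB comparison was not made inside the CD8A and CD4 kinds, so the part of these kinds in it was not tested.

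No member differed one way in all libraries between dividing T cells, with a UMI of MKI67 or TOP2A, and the other T cells. CD3D was lower in 6 of 7 libraries (median log2 ratio -0.23), CD3E in 6 of 7 (-0.29) and TRAC in 6 of 7 (-0.10), and the exceptions were libraries 9, 13 and 11. CD3D chose these cells by its UMIs, so a cell with more UMIs can enter at a lower CPM of CD3D. With the gate that uses no member, CD3D alone was lower in all 6 libraries compared. CD3E had a median of 384 CPM in dividing cells and 494 CPM in the others. CD2 was split, from -0.51 in libraries 5 and 11 to 0.94 in library 12. Dividing cells had the higher median UMI count in 7 of 7 libraries (2996 to 6727 UMIs, against 2469 to 3597 in the others). A UMI of MKI67 or TOP2A is also found more readily in a cell with more UMIs, so part of this follows from the choice of cells. Of 10024 measured genes, 7.1% were higher and 2.94% lower in all 7. The CD2 ligand CD48 was lower in all 7 (-0.54).

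**Figure D4:**
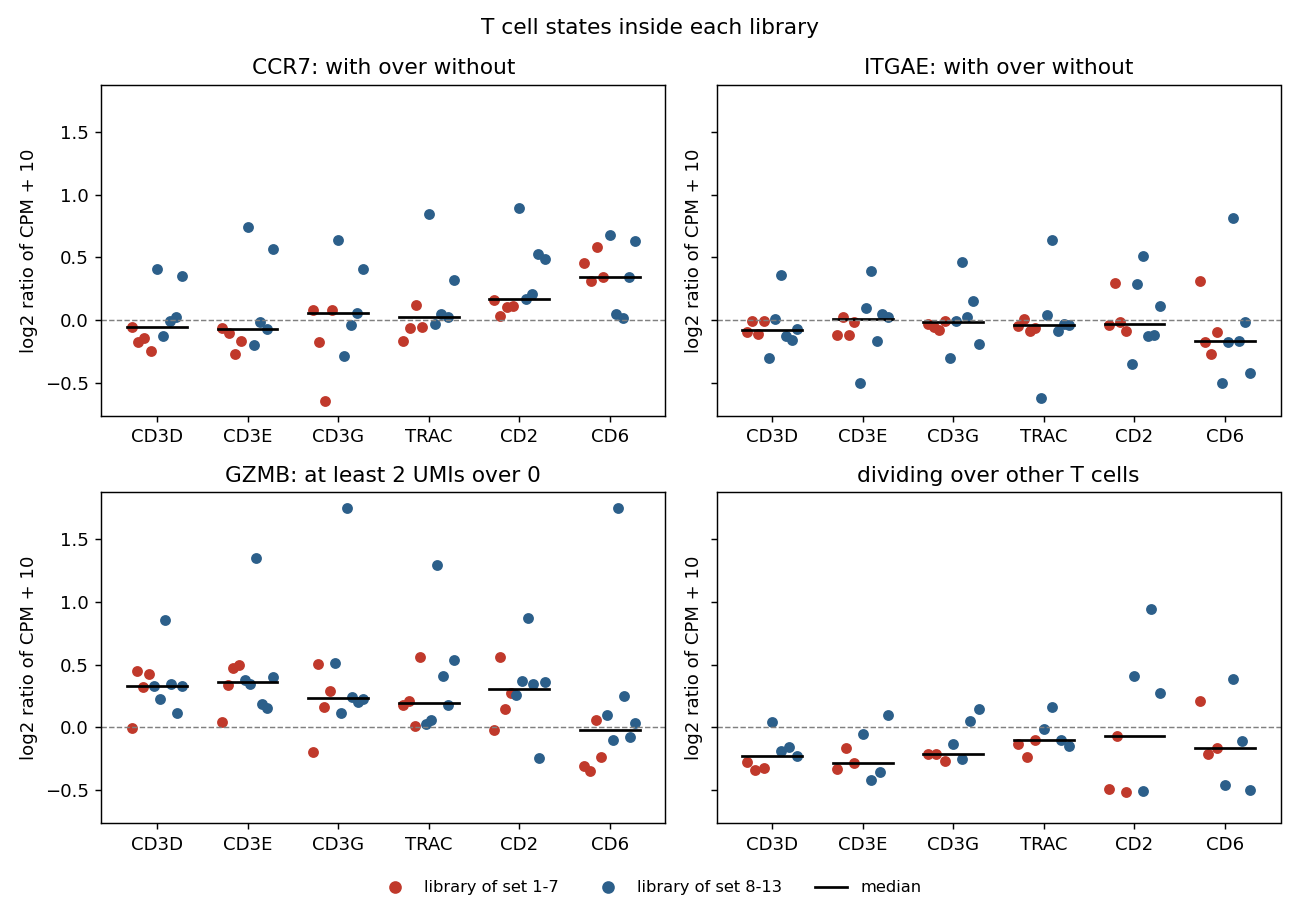
Log2 ratio of CPM plus 10 inside each library for T cells with CCR7 over without, with ITGAE over without, with at least 2 GZMB UMIs over none, and dividing over other T cells, for 6 genes; each point is 1 library, coloured by barcode set, and the line is the median. CD2 and CD6 lie above 0 in all 9 libraries for CCR7, CD3E and TRAC in all 10 for GZMB, and none of the 6 lies on 1 side in all libraries for ITGAE or for dividing cells.

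In the B, plasma, myeloid and epithelial gates CD3D, CD3E, CD3G, TRAC, CD2 and CD6 were far lower than in T cells, but not equally so. Cells in more than 1 gate (1174) are left out of these levels. CD3D stood at 204 CPM in 4003 cells of the B gate, 162 CPM in 1916 of the plasma gate, 43.1 CPM in 155 of the epithelial gate and 7.54 CPM in 189 of the myeloid gate, beside 2160 CPM in the CD8A kind. These gates use no member. Their cells without MS4A1 and CD79A stay here only with fewer than 3 CD3D UMIs, since the T gate takes the others. Cells with MS4A1 or CD79A, among them all of the B gate, stay with any number of CD3D UMIs. A barcode that holds a T cell and a B cell would thus stay in the B gate. After thinning, 20.2% of B gate cells held a CD3D UMI, 14.5% of plasma gate cells and 1.06% of myeloid gate cells. These kinds of cell are not known to use CD3, so by these shares a single CD3D UMI does not mark a T cell in these data.

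**Figure D5:**
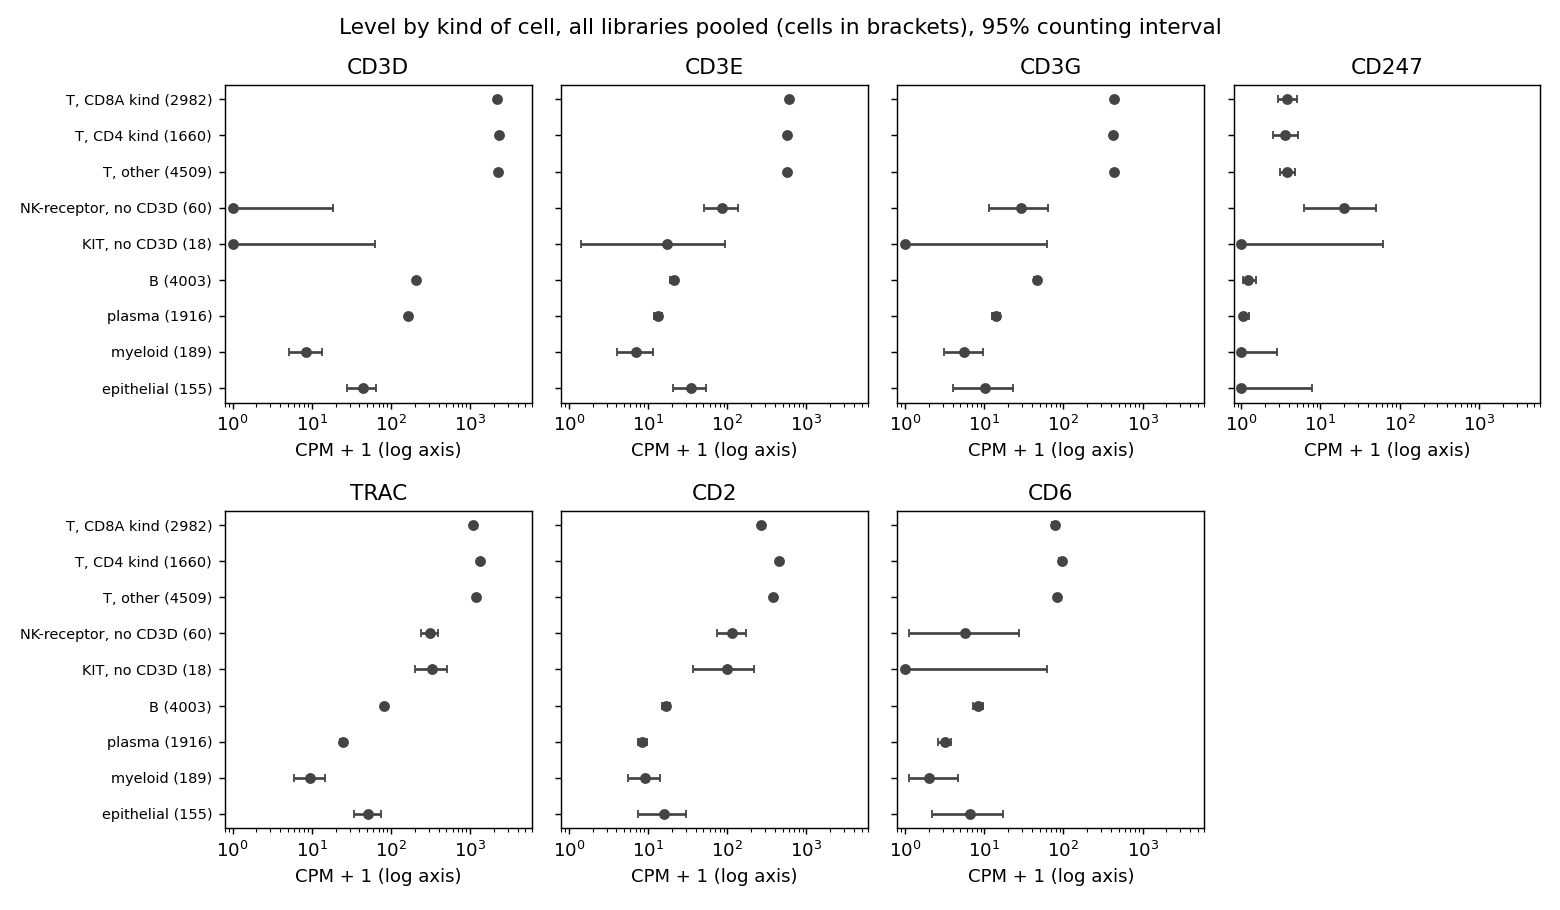
Level of each of the 7 genes in CPM plus 1, on a log axis, by kind of cell with all libraries pooled and the number of cells in brackets; bars are exact 95% Poisson intervals for counting error only. The T cell kinds lie highest for 6 genes, CD3D is 0 by choice in the 2 kinds defined without it, and its level in the B and plasma gates (204 and 162 CPM) lies above that of CD3E there (20.1 and 12.3 CPM).

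CD3D stood out from CD3E in these gates. In the plasma gate of library 8, CD3E made up 1.6% of the UMIs of CD3E plus CD3D, against 18.6% in T cells of the same library, and in library 5 it made up 2.9%, against 20.4%. In the B gate it made up 4.3% in library 8 and 3.6% in library 11, against 18.6% and 17.1% in their T cells. In library 12 the plasma gate, at 17.7%, and the B gate, at 16.7%, came closer to the 23.0% of its T cells, as did the plasma gate of library 1, with 18.2% against 22.3%. The CD3D of the plasma gate of libraries 5 and 8 and of the B gate of libraries 8 and 11 thus came with less CD3E than in the T cells of the same libraries, and its source was not tested. Library 10, whose T cells carried the most MZB1, had the lowest such share among the 10 libraries, at 10.9%.

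Cells without CD3D that carry NK receptor genes or KIT were also looked at. The 60 cells with NK receptor genes (KLRD1, NCR1, NCAM1 or KIR2DL4) and no CD3D had 309 CPM of TRAC (95% interval 238 to 394), 114 CPM of CD2 (73.0 to 170), 85.5 CPM of CD3E (50.7 to 135) and 4.75 CPM of CD6. TRAC lay between its pooled level in the CD8A kind (1089 CPM) and that in the B gate (81.7 CPM). After thinning, 30% of the 60 cells held a TRAC UMI, against 7.67% of B gate and 2.56% of plasma gate cells. The median over libraries was 73.28 CPM in the B gate and 25.25 CPM in the plasma gate. In single libraries TRAC reached 397 CPM (324 to 482) in the B gate of library 2 and 242 CPM (198 to 293) in the plasma gate of library 1. The TRAC of the 60 cells thus lay above the pooled level of these gates, with an interval that overlapped those of their highest libraries. Its source was not tested. CD247, whose zeta chain also signals for the NK receptor CD16, had 4 UMIs or 19.0 CPM (5.18 to 48.6), against 2.82 CPM in the CD8A kind, on 31 UMIs. FCER1G, the related gamma chain that can take the place of zeta, had 71.2 CPM there and 0.455 CPM in the CD8A kind. It is also a gene of the myeloid gate, whose cells were left out of both kinds, so both levels are limited by that choice. All T cells, those of another gate included, had 4.1 CPM of FCER1G. The 18 cells with at least 2 UMIs of KIT, a receptor of innate lymphoid and mast cells, and no CD3D had 332 CPM of TRAC (203 to 513) and 99.6 CPM of CD2 from 6 UMIs. These cells are few, from several libraries, and a T cell whose CD3D was missed would enter them.

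The ligands of CD2 and CD6 were found in several kinds of cell. CD48 was 217 CPM in the CD8A kind, 147 CPM in the CD4 kind, 57.0 CPM in the B gate, 69.4 CPM in the myeloid gate and 9.36 CPM in the epithelial gate. CD58, the main CD2 ligand in humans, was 64.9 CPM in the myeloid gate, 40.4 CPM in the CD4 kind, 35.6 CPM in the epithelial gate, 28.0 CPM in the CD8A kind, 26.9 CPM in the B gate and 5.26 CPM in the plasma gate. ALCAM was 30.3 CPM in the plasma gate, 22.6 CPM in the myeloid gate, 22.5 CPM in the epithelial gate and 18.5 CPM in the B gate, against 17.5 CPM in the CD4 kind and 6.19 CPM in the CD8A kind. CDCP1 was 28.1 CPM in the epithelial gate and at most 4.02 CPM in each other kind with at least 100 cells.

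Over the 9 kinds of cell, the gene whose level followed CD3G most closely was CD6 (Pearson r of log2 of CPM plus 1, 0.974). TRAC and CD2 were each among the 3 closest to the other, LAT was closest to CD2 (0.985), and BCL11B, a T cell transcription factor, was among the 3 closest to CD3E (0.976) and to CD6 (0.968). PDCD1, the inhibitory receptor PD-1, was closest to CD3D (0.944). XPA was closest to CD3E (0.979), and the unnamed gene ENSMMUG00000055756 (0.978) and VPS51 (0.977) to TRAC. PDK1 (0.938) and MLLT11 (0.932) were the next closest to CD3D, and GAL was among the 3 closest to CD3G (0.948) and CD6 (0.963). The closest genes were thus not T cell genes alone. These are descriptions over 9 points, 3 of them T cell kinds, that share libraries, and 2 of which lack CD3D by choice.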

How the data were processed

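The genes and lists were chosen with earlier results of these data known. The authors deposited raw UMI counts from Cell Ranger 3.1.0 (file headers) and, for the cells they kept, corrected counts as the natural log after adding 1. The submitters' processing notes also name Seurat 3.1, with no role, and no source used here states the genome build. The corrected values became whole once the log was undone (tolerance 1e-04) and served to find kept cells (at least 1502 UMIs each) and as an alternative. All levels are raw counts summed over cells and scaled to 1000000 UMIs (CPM), with exact Poisson or Clopper-Pearson 95% intervals, which cover counting error only and not the spread between animals. Of the gene IDs, 661 took a symbol from the table of gene names.

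Ratios are log2 of CPM plus 10, inside libraries with at least 20 cells on both sides, over genes with at least 50 UMIs; barcode sets were compared over libraries with at least 50 T cells, or 50 cells of the kind. The gates were T (given with the results), B (MS4A1 and CD79A, at least 3 UMIs together), plasma (MZB1, TNFRSF17, SDC1 and DERL3, at least 5, no MS4A1), myeloid (FCER1G, AIF1, CSF1R and LYZ, at least 5) and epithelial (EPCAM, KRT18 and PHGR1, at least 5). No doublet caller was run; cells in more than 1 gate were left out of the kinds. Thinning drew 1500 UMIs per cell. The ratios recovered known changes in simulated counts. The simulation held counting error alone, with no added spread of ratios between libraries, and did not try changes as small as some reported here. Genes are named by role lists (27 of receptor signalling, 4 ligands, 6 of receptor constant regions and partners), members always and list genes where one way; the closest genes by Pearson r needed 20 CPM in some kind. Python 3.11.15, numpy 2.4.6, scipy 1.17.1 and pandas 2.3.3 were used. TRBC1, TRBC2, TRDC and TRGC1 were not found by symbol, so cells with TRDC were not compared. Results for 1 gene of the signalling list are not reported here.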

Additional observations from a re-analysis of the deposited data

Results flagged for a closer look

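Among the 4 libraries of set 1-7, CD3E in T cells of library 5 (945.5 CPM) lay apart from the others, and CD247 did so in library 2 (0.2317 CPM, from 2 UMIs, where the other 3 had none). These are 2 flags from 14 sets of libraries looked at, and chance alone gives about 1 in 20.

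The 31090 barcodes that the authors did not keep, library 4 aside, also held the receptor genes: 796.7 CPM of CD3D, 221.9 of CD3E, 154.3 of CD3G, 0.7337 of CD247, 544.9 of TRAC, 133 of CD2 and 45.55 of CD6, each above the 0.088 CPM that 3 UMIs would give. They entered no comparison.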

How the results depend on the processing

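Of 1036 member values under the alternatives, 1010 moved by less than the spread between libraries, 26 moved by more and 0 changed sign against a called direction. A change of sign was counted only for members called in the main setting. Dropping the limit of 50 UMIs cannot change a value, and keeping library 4 added no library to a comparison, so their values count as unmoved from the start. The number of members one way in every library was 1 for the CD8A kind against the CD4 kind, and 0 with T cells of at least 1 or 5 CD3D UMIs, with B marker cells kept in, with kinds by CD8A plus CD8B, with GZMB cells alone and with cells without CCR7 alone; leaving out each library in turn gave 1 throughout. For CCR7 it was 2, and 1 with at least 5 CD3D UMIs or with the authors' corrected counts, 0 with thinned cells or with cells of another gate left out, and 4 in set 1-7 alone. For ITGAE it was 0, and 1 with at least 5 CD3D UMIs and 2 in set 1-7 alone. For GZMB it was 2, and 0 with the gate that uses no member or with cells of another gate left out, 1 with at least 5 CD3D UMIs, thinned cells, scaling by the median ratio or corrected counts, 4 in set 8-13 alone, and 2 to 4 with 1 library left out (4 without library 1). For dividing cells it was 0, and 2 with at least 5 CD3D UMIs, 1 with the gate that uses no member, with cells of another gate left out or without libraries 10 and 13, 4 with at least 50 cells, 5 in set 1-7 alone, 6 with at least 2 UMIs of MKI67 plus TOP2A (2 libraries), and 0 to 1 with 1 library left out (1 without library 9, 11 or 13). Between the barcode sets 4 members did not overlap, and 3 with thinned cells (CD247 under 50 UMIs), with cells of another gate left out (CD3D lost) or in the CD8A kind alone, and 2 with B marker cells kept in or in the CD4 kind alone, with 4 throughout when 1 library was left out. The cause of these moves was not tested, apart from the smaller number of libraries in the alternatives that use fewer.

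Leaving out cells of another gate, libraries 10 and 13, and the subsets by GZMB and CCR7 were chosen after seeing the data. The comparison of cells with TRDC was not run. No paired analysis was possible because the columns carry no replicate numbers and libraries are tied to no group. CD247 is limited by its low counts in every comparison, and the cause of these was not tested.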
